A study of Mus musculus with 18 samples.

Results

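The miR-193 and miR-365 microRNAs of the mouse come from 2 pairs of hairpins. Mir193b and Mir365-1 lie next to each other on chromosome 16, and Mir193a and Mir365-2 lie next to each other on chromosome 11. The members were chosen by name as the miR-193-3p and miR-365 arms of these hairpins, and make up 5 of the 1251 entries of the table: mmu-miR-193a-3p, mmu-miR-193b-3p, mmu-miR-365-3p, mmu-miR-365-1-5p and mmu-miR-365-2-5p, written below without the species prefix. Of these, 4 were detected in at least 6 of the 18 libraries and were tested, among 293 tested entries, and miR-193a-3p, detected in 4 libraries, was not. The opposite arms miR-193a-5p and miR-193b-5p are given beside them.

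Small RNA libraries were made from 3 types of skin sample of 6 female littermate SKH-1E Hairless mice, numbered 2, 3, 7, 8, 9 and 10. CHR is nonlesional, chronically UV-exposed skin, PAP is papilloma, a benign growth of the epidermis, and cuSCC is invasive cutaneous squamous cell carcinoma, with 1 library of each type from every mouse (n = 6). All 3 sample types therefore carry the defect in the Hairless gene and had been exposed from young adulthood to repeated low doses of ultraviolet radiation (UVR) from solar simulators, with the tissue taken after irradiation had stopped. CHR showed solar damage on histology and no unirradiated skin was analysed here, so the comparisons are between irradiated tissues of an outbred strain. The purpose of the study was to find what changes as UVR-exposed skin develops into carcinoma by way of a preneoplastic lesion.

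A microRNA is cut from a hairpin, of which the 5p and the 3p arm can each be loaded into the silencing complex. The seed, bases 2 to 8, is the main part that pairs with target messenger RNAs, so arms with the same seed share most of their predicted targets. miR-193b has been studied as a restraint on tumour growth, with cyclin D1 and urokinase among its proposed targets, and miR-365 has been studied in keratinocytes and skin tumours. The cluster of miR-193b and miR-365 is also known from work on brown adipocytes, in which it was studied as a factor of fat cell identity.

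The sequences below are shown because they set which reads can be told apart, with the seed in capitals (mature sequences 5′ to 3′ from RefSeq, build GRCm38.p6, all 4 hairpins on the plus strand).
miR-193b-3p, from Mir193b, chr16:13449570-13449591: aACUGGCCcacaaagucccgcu
miR-193a-3p, from Mir193a, chr11:79712009-79712030: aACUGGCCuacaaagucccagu
miR-365-3p, from Mir365-1, chr16:13453895-13453916, and from Mir365-2, chr11:79726467-79726488: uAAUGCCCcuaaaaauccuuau
miR-365-1-5p, from Mir365-1, chr16:13453855-13453877: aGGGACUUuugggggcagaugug
miR-365-2-5p, from Mir365-2, chr11:79726428-79726450: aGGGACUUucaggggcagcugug
miR-193b-5p, from Mir193b, chr16:13449533-13449554: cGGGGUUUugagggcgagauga
miR-193a-5p, from Mir193a, chr11:79711975-79711996: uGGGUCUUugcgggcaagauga

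The miR-193-3p arms share their seed and differ at 3 of 22 positions (U9C, A20G and G21C, the miR-193a-3p base first, counted from the 5′ end). The miR-365 5p arms likewise share a seed and differ at 3 of 23 positions (U10C, G11A and A19C, the miR-365-1-5p base first). miR-365-3p is the same sequence from both hairpins, so its reads cannot be assigned to chromosome 11 or 16, whereas the miR-365 5p arms each name 1 hairpin. The 5p arms of miR-193, by contrast, carry different seeds. Of the 1679 mature mouse names in the RefSeq table, none outside the members has the seed of the miR-193-3p arms, of miR-365-3p or of the miR-365 5p arms. How reads with mismatches were assigned between such similar arms is not given in the sources used here.

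The hairpins of the chromosome 16 pair are 79 bases (Mir193b, chr16:13449523-13449601) and 87 bases long (Mir365-1, chr16:13453840-13453926), with 4238 bases between them. Both lie inside introns of Gm15738, an antisense gene annotated on the opposite strand. The chromosome 11 hairpins are 66 bases (Mir193a, chr11:79711969-79712034) and 112 bases long (Mir365-2, chr11:79726400-79726511), with 14365 bases between them, and overlap no other annotated gene.

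Values are log2 ppm, relative levels that had been quantile normalised between libraries before deposit, and 3.32, the log2 of 10 ppm, stands for not detected. The read depth of single libraries is unknown, so no counting error can be given. The lowest detected value of a library could be much higher, up to 5.77 among CHR (mouse 7), 6.83 among PAP (mouse 10) and 4.50 among cuSCC (mouse 10), which limits what can be seen of the rare arms. The cuSCC of mouse 10 stood apart. Over all tested microRNAs its mean correlation was r = -0.120 with the other cuSCC and 0.408 with the PAP, and the library closest to it was the PAP of the same mouse (r = 0.633). The other 17 libraries were on average closest to their own type. Results that rest on the cuSCC of mouse 10 are given with and without it.

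miR-193b-3p was the most abundant of these microRNAs in all 18 libraries and was lower in cuSCC than in CHR. In CHR it was 11.62 in mouse 9 at the lowest, 12.37 at the median and 12.50 in mouse 2 at the highest. In PAP the lowest value was 11.18 in mouse 2, the median 11.98 and the highest 12.96 in mouse 8. In cuSCC the values were 9.77 in mouse 7 at the lowest, 10.62 at the median and 12.002 in mouse 10 at the highest. The PAP values spread on both sides of those of CHR, whereas 5 of the 6 cuSCC were below every CHR and only the cuSCC of mouse 10 lay within the range of CHR. Within the libraries, miR-193b-3p ranked between 41 and 56 in CHR, between 35 and 64 in PAP and between 49 and 86 in cuSCC.

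**Figure D1:**
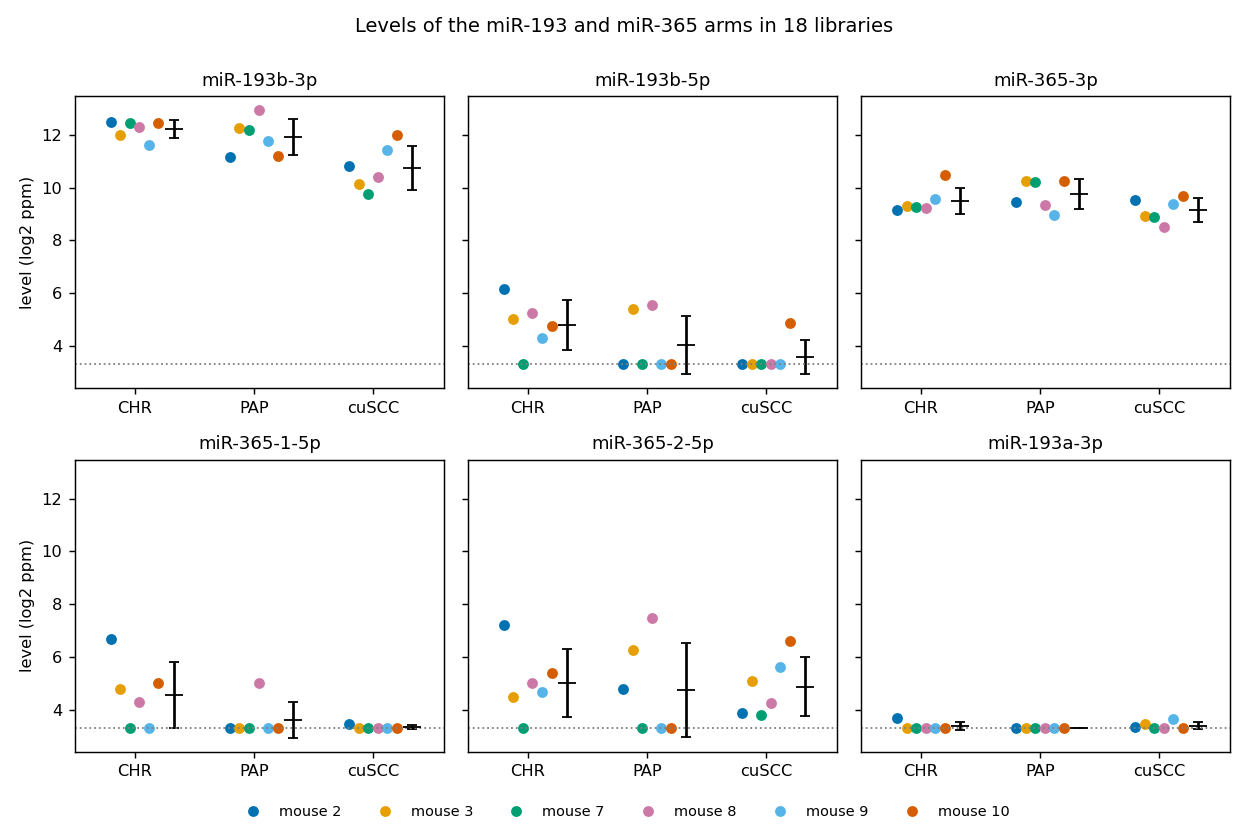
Level (log2 ppm) of 6 arms in the 18 libraries, with 1 panel per arm, 1 point per mouse coloured by mouse, the mean and SD (n = 6) as black bars and the lowest value of the table, 3.32, as a dotted line. miR-193b-3p and miR-365-3p lay above 8.5 in all 18 libraries, and most cuSCC points of miR-193b-3p are below all CHR points, whereas the other arms were often at the lowest value.

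The mean of miR-193b-3p was 12.22 ± 0.35 in CHR (SD, n = 6), 11.92 ± 0.69 in PAP and 10.76 ± 0.83 in cuSCC. In limma across all tested entries with Benjamini-Hochberg adjustment, miR-193b-3p fell by 1.46 on the log2 scale in cuSCC against CHR (SE 0.37, 95% confidence interval -2.25 to -0.66, adjusted p = 0.00702), a level 2.75-fold lower. An exact permutation test over samples, adjusted over the same entries, gave p = 0.0244. The difference was negative in 6 of 6 mice, from -0.19 in mouse 9 to -2.70 in mouse 7. Without the cuSCC of mouse 10 the difference was -1.71 (adjusted p = 0.00103 in limma). In this comparison 22.2% of all tested entries were called lower in cuSCC and 42.3% were called in either direction, and miR-193b-3p ranked 38 among 138 entries with a negative difference.

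**Figure D2:**
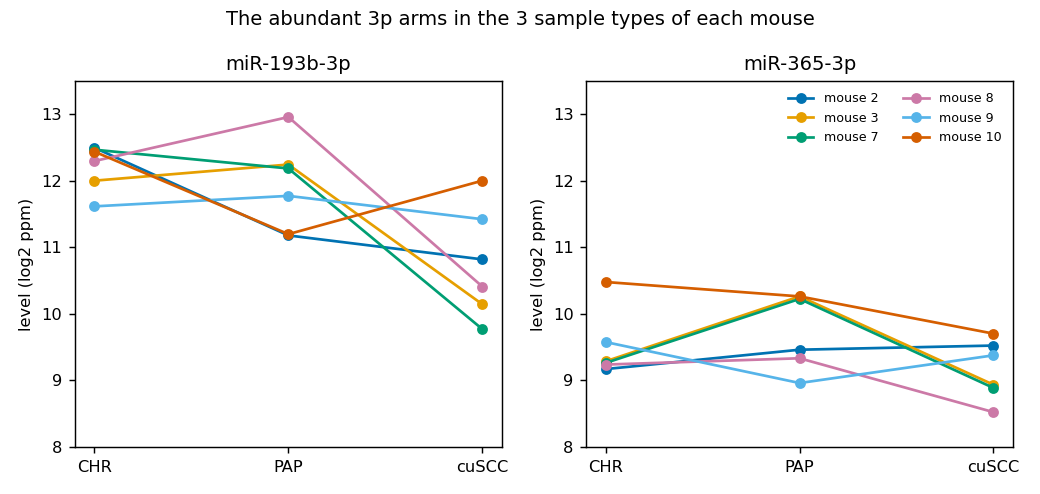
Levels (log2 ppm) of miR-193b-3p (left) and miR-365-3p (right) in CHR, PAP and cuSCC, with 1 line per mouse joining the samples of that mouse. All 6 lines of miR-193b-3p end lower in cuSCC than they start in CHR and that of mouse 10 alone turns up from PAP to cuSCC, while the lines of miR-365-3p stay between 8.52 and 10.48 and share no direction.

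Between PAP and CHR, miR-193b-3p differed by -0.30 (SE 0.33, 95% confidence interval -1.01 to 0.42, adjusted p = 0.507 in limma), with 3 mice higher and 3 lower in PAP. Between cuSCC and PAP it differed by -1.16 (SE 0.43, 95% confidence interval -2.10 to -0.22), which did not pass the adjusted threshold of 0.05 in limma (adjusted p = 0.112). It was lower in the cuSCC of 5 of 6 mice, the exception being mouse 10, in which the cuSCC was 0.80 above the PAP. Without the cuSCC of mouse 10, left out after seeing the data, the difference was -1.41 and passed (adjusted p = 0.0324 in limma). With all 3 sample types in 1 limma fit it passed as well (adjusted p = 0.0451). It did not pass with mouse as a replicate block (adjusted p = 0.181 in limma) or in the exact permutation test (adjusted p = 0.149). Nor did it pass without mouse 2, 3, 7, 8 or 9 (adjusted p = 0.114 to 0.327 in limma). By the means the order was CHR, PAP and cuSCC, and neither neighbouring pair in that order differed past the threshold.

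These are bulk samples, in which fewer cells of a type and less RNA per cell cannot be told apart. Markers of other cell types moved between the sample types too, against a background of 18.4% of all tested entries called lower and 14.0% called higher in PAP against CHR, and 22.2% and 20.1% in cuSCC against CHR. The summed level of 6 skeletal muscle microRNAs, of which miR-208b-3p and miR-499-5p were never detected, (log2 ppm) ranged from 15.4 to 16.0 in CHR. It was between 5.91 and 12.5 in PAP and between 6.42 and 14.2 in cuSCC, the lowest cuSCC being that of mouse 10. Undetected microRNAs enter this sum, and those of the other lists, at 10 ppm. The 5.91, found in the PAP of mice 3, 7 and 10, thus stands for none detected and is not a measured level. The lowest detected values of these libraries were 5.40, 6.72 and 6.83. Of the 3 tested ones, 3 were lower in PAP than in CHR and 1, miR-133a-3p, was lower in cuSCC (limma). Whether muscle content bears on the miR-193b-3p values was not tested.

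The other marker lists moved in different directions. The summed level of 6 leukocyte microRNAs spanned 13.1 to 14.3 for CHR, 9.06 to 11.8 for PAP and 11.1 to 12.6 for cuSCC, with miR-155-5p never detected. Of the 4 tested ones, 2 (miR-150-5p and miR-342-3p) were lower in PAP, and in cuSCC these were lower and miR-142-5p was higher. The 2 endothelial arms of miR-126 were both higher in cuSCC than in CHR, with sums of 9.26 to 11.2 against 7.84 to 9.35 and of 7.61 to 9.004 in PAP. Of 6 microRNAs of fibroblasts and smooth muscle, 4 were lower in PAP and 1 was lower in cuSCC, with sums from 14.4 to 15.1 for CHR, from 11.1 to 14.2 for PAP and from 12.7 to 15.7 for cuSCC (the 3p arms of miR-199a and miR-199b held identical values). Of 7 epithelial microRNAs, which as background mark keratinocytes, 4 were higher in PAP and 3 in cuSCC, with sums from 17.5 to 18.5 for CHR, from 17.8 to 18.6 for PAP and from 17.5 to 18.5 for cuSCC. Of 4 erythroid microRNAs, 2 were tested: miR-451a was higher in both lesions and miR-486-5p lower in cuSCC, with sums of 16.7 to 17.8, 16.7 to 18.2 and 14.9 to 17.9 in CHR, PAP and cuSCC, and miR-144-3p was never detected. The part of these cell types in the miR-193b-3p values was not tested.

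miR-365-3p, the arm shared by both clusters, was detected in every library and did not pass in any comparison. In CHR it was 9.17 in mouse 2 at the lowest, 9.27 at the median and 10.48 in mouse 10 at the highest. In PAP it ranged from 8.96 in mouse 9 over a median of 9.84 to 10.26 in mouse 3. In cuSCC it ranged from 8.52 in mouse 8 over a median of 9.16 to 9.70 in mouse 10. The ranges of the 3 sample types overlapped, with 3 of 6 cuSCC below every CHR.

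The means of miR-365-3p were 9.50 ± 0.50 in CHR, 9.75 ± 0.57 in PAP and 9.16 ± 0.45 in cuSCC (SD, n = 6). The difference was 0.25 for PAP against CHR (SE 0.33, 95% confidence interval -0.46 to 0.95, adjusted p = 0.590 in limma). For cuSCC against CHR it was -0.34 (SE 0.31, 95% confidence interval -1.01 to 0.32, adjusted p = 0.371 in limma), with 5 of 6 mice lower in cuSCC. For cuSCC against PAP it was -0.59 (SE 0.32, 95% confidence interval -1.29 to 0.11, adjusted p = 0.252 in limma). The interval for cuSCC against CHR thus reaches down to -1.01, which leaves a fall of miR-365-3p of that size possible.

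To ask whether the 2 abundant 3p arms moved apart, their difference was taken within each library. miR-365-3p minus miR-193b-3p was -2.72 ± 0.59 in CHR, -2.17 ± 0.93 in PAP and -1.60 ± 0.55 in cuSCC (log2, SD, n = 6). In cuSCC 4 of 6 libraries had a smaller gap than every CHR, and the exceptions, mice 9 and 10, were within the range of CHR. The change between CHR and cuSCC was 1.11 (exact permutation p = 0.0152, adjusted p = 0.039 over 6 comparisons of such differences, permutation test over samples, two-sided). Those 6 include the differences of miR-193b-3p from miR-193a-3p given below, which restate miR-193b-3p, and the adjusted p is smaller for their inclusion. Without mouse 2, 3, 7 or 8 the adjusted exact permutation p was 0.111 to 0.143. Within mouse 10 the gap widened, from -1.96 in CHR to -2.30 in cuSCC, and within mouse 9 it was nearly the same in both. With the samples paired by mouse the exact sign-flip test did not pass (adjusted p = 0.25). After adjustment that test passes only if most of the 6 comparisons reach its smallest possible p. This comparison did not reach it, as the mice did not all go the same way. The paired test thus did not show that the arms moved apart. The change was 0.54 between CHR and PAP and 0.57 between PAP and cuSCC, neither past the threshold (adjusted exact permutation p = 0.317 for both).

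**Figure D3:**
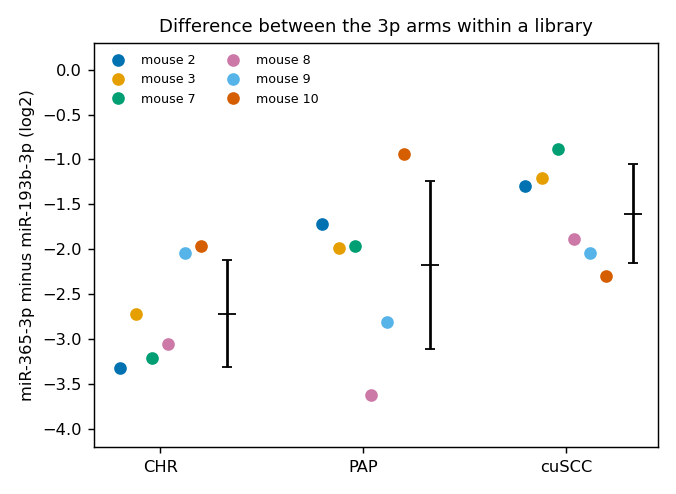
Difference between miR-365-3p and miR-193b-3p within each library (log2) for CHR, PAP and cuSCC, with 1 point per mouse and the mean and SD (n = 6) as black bars. The mean rose from -2.72 in CHR to -1.60 in cuSCC, with the cuSCC of mice 9 and 10 among the CHR points, and the PAP points spread from -3.63 to -0.94.

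The paralogue with the same seed, miR-193a-3p, stood at the lowest value of the table in 14 of 18 libraries. It was detected in the CHR of mouse 2 at 3.69, in no PAP, and in the cuSCC of mice 2, 3 and 9 at 3.34, 3.46 and 3.63. In those 4 libraries it was close to the lowest detected value. The lowest detected value was 3.71 or higher in the PAP and 3.69 or higher in the CHR of mice 3, 7, 8 and 9. A miR-193a-3p level like that of the cuSCC was not detectable in these libraries. Its opposite arm, miR-193a-5p, was detected only in the cuSCC of mouse 2, at 3.32. With undetected values counted at the lowest value of the table, miR-193b-3p minus miR-193a-3p was 8.84 ± 0.32 in CHR, 8.60 ± 0.69 in PAP and 7.36 ± 0.81 in cuSCC (log2, SD, n = 6). These differences have no exact size, as miR-193a-3p was mostly undetected.

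The change of this difference was -1.47 for cuSCC against CHR, -1.24 for cuSCC against PAP and -0.24 for PAP against CHR. As a nearly constant value is subtracted, these restate the changes of miR-193b-3p itself (-1.46, -1.16 and -0.30) and are no test of whether the paralogues moved apart. With undetected values set at the lowest detected value of their library, the change was -1.11 for cuSCC against CHR and 0.53, the other direction, for cuSCC against PAP.

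The arms that name a single hairpin were rare. miR-365-1-5p, from the chromosome 16 cluster that also gives miR-193b-3p, was detected in 4 CHR, 1 PAP and 1 cuSCC of 6 each. In CHR it reached 6.67 in mouse 2, 5.01 in mouse 10, 4.78 in mouse 3 and 4.30 in mouse 8, in PAP 5.01 in mouse 8 and in cuSCC 3.47 in mouse 2. The difference was -1.22 for cuSCC against CHR (SE 0.47, 95% confidence interval -2.24 to -0.21, adjusted p = 0.0507 in limma) and did not pass. It entered the test with 6 detected libraries, of which 4 were CHR, the group in which it was highest. It passed with all 3 sample types in 1 limma fit (adjusted p = 0.0493) and with undetected values at the lowest detected value of their library (-1.29, adjusted p = 0.0297 in limma). In the latter, most of its cuSCC values are the lowest detected values of their libraries and not measured levels of the arm. The adjusted p was 0.0971 without the filter on detection, 0.0635 without the cuSCC of mouse 10 (limma) and 0.119 in the exact permutation test. The differences were -0.96 for PAP against CHR (SE 0.55, adjusted p = 0.204 in limma) and -0.26 for cuSCC against PAP (SE 0.31, adjusted p = 0.621 in limma).

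miR-365-2-5p, from the chromosome 11 cluster, was detected in 5 CHR, 3 PAP and 6 cuSCC. In CHR it ranged from undetected in mouse 7 over a median of 4.84 to 7.21 in mouse 2. In PAP it was 4.77 in mouse 2, 6.26 in mouse 3 and 7.46 in mouse 8 and undetected in the rest. In cuSCC it ranged from 3.81 in mouse 7 over a median of 4.67 to 6.62 in mouse 10. The groups overlapped, apart from the PAP of mouse 8, which lay above every CHR and every cuSCC, with means of 5.02 ± 1.28, 4.74 ± 1.77 and 4.88 ± 1.10 (SD, n = 6) in CHR, PAP and cuSCC. The differences were -0.27 for PAP against CHR (95% confidence interval -2.04 to 1.49, adjusted p = 0.829 in limma), -0.14 for cuSCC against CHR (95% confidence interval -1.45 to 1.17, adjusted p = 0.875 in limma) and 0.14 for cuSCC against PAP (95% confidence interval -1.56 to 1.83, adjusted p = 0.903 in limma).

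**Figure D4:**
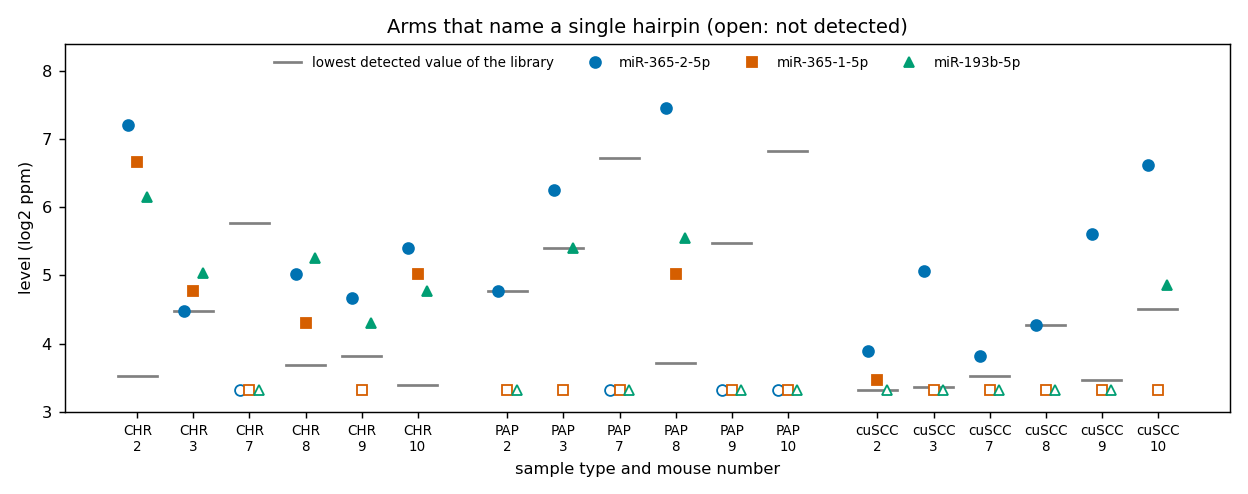
Levels (log2 ppm) of miR-365-2-5p (circles), miR-365-1-5p (squares) and miR-193b-5p (triangles) in each library by sample type and mouse number, with open symbols for not detected and a grey line at the lowest detected value of the library. All 6 cuSCC hold miR-365-2-5p, 5 of them without miR-365-1-5p, and the PAP of mice 7 and 10 have lowest detected values of 6.72 and 6.83, above most points of the other libraries.

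Set side by side, miR-365-2-5p was the higher of the miR-365 5p arms in 13 of 18 libraries, miR-365-1-5p in 1, the CHR of mouse 3, and neither was detected in 4. Both were detected in 4 CHR, 1 PAP and 1 cuSCC, while miR-365-2-5p alone was detected in 1 CHR, 2 PAP and 5 cuSCC. No library held miR-365-1-5p alone. Whether the change of this balance between sample types exceeds the spread was not tested. The level of a 5p arm gives no measure of how much miR-365-3p its hairpin made.

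miR-193b-5p, the other arm of the Mir193b hairpin, was detected in 5 CHR, 2 PAP and 1 cuSCC. In CHR it was 4.30 to 6.15 in the mice other than mouse 7, where it was undetected, in PAP 5.40 in mouse 3 and 5.54 in mouse 8, and in cuSCC 4.86 in mouse 10. The mean was 4.81 ± 0.95 in CHR, 4.04 ± 1.11 in PAP and 3.58 ± 0.63 in cuSCC (SD, n = 6). In limma it was lower in cuSCC than in CHR, with a difference of -1.23 (SE 0.44, 95% confidence interval -2.17 to -0.29, adjusted p = 0.0365), and the exact permutation test missed the threshold (adjusted p = 0.0855). Of its 8 detected libraries 5 were CHR, so it passed the filter on detection mainly through the group in which it was highest. The call was lost without that filter (adjusted p = 0.0682 in limma), with all 3 sample types in 1 limma fit (0.065) and without mouse 2, 3, 8 or 9 (0.0638 to 0.135 in limma). Without the cuSCC of mouse 10, the only cuSCC in which it was detected, the difference was -1.49 (adjusted p = 0.00948 in limma). The other differences were -0.77 for PAP against CHR (adjusted p = 0.318 in limma) and -0.46 for cuSCC against PAP (adjusted p = 0.568 in limma), the latter being -0.72 without the cuSCC of mouse 10 (adjusted p = 0.319 in limma).

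**Figure D5:**
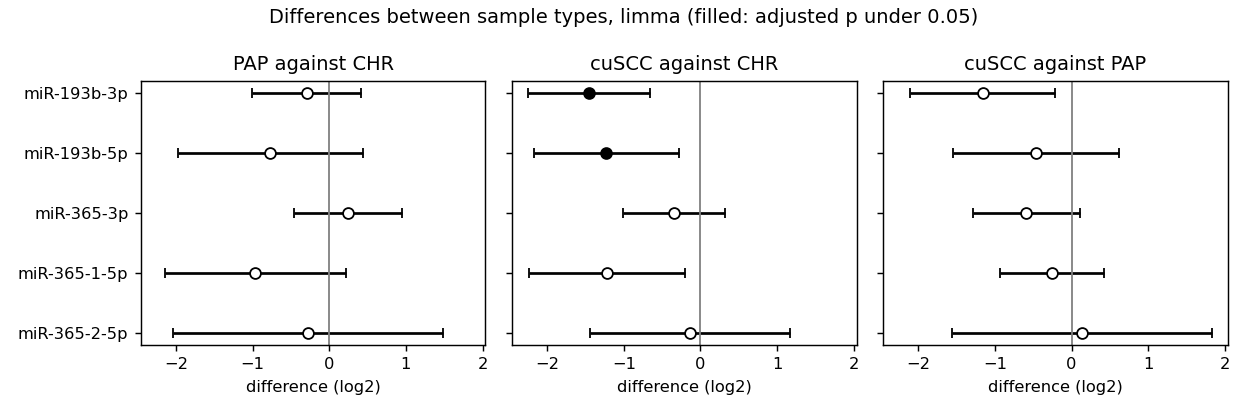
Differences between sample types (log2) of 4 members and miR-193b-5p from limma, with 95% confidence intervals, for PAP against CHR, cuSCC against CHR and cuSCC against PAP, filled where the adjusted p was under 0.05. Filled points are found only for miR-193b-3p (-1.46) and miR-193b-5p (-1.23) in cuSCC against CHR.

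Counted together, 0 of the 4 tested members passed in PAP against CHR (0 at an unadjusted p under 0.05 and 0 in the exact permutation test), where 32.4% of all tested entries passed in limma. In cuSCC against CHR 1 of 4 passed, lower in cuSCC, where 22.2% of all entries were called lower and 42.3% in either direction, and the median difference of the 4 was -0.78 beside 0.11 over all entries. In cuSCC against PAP 0 of 4 passed in limma (1 at an unadjusted p under 0.05). The exact permutation test called no entry in this comparison, where its smallest possible p of 0.00216 became 0.0945 after adjustment. Of all entries 11.6% passed in limma (2.39% lower and 9.22% higher), and the median was -0.42 beside 0.21. For PAP against CHR the medians were -0.29 and -0.23. The share of members called lower in cuSCC against CHR, 1 of 4, is near that of all entries. None of the 4 had all 6 cuSCC below all 6 CHR, a pattern shown by 10.6% of entries. The comparisons with CHR share the same CHR libraries.

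Other microRNAs studied in brown adipocytes moved in both directions or did not pass. Of 9 listed, with summed levels from 16.0 to 16.5 for CHR, from 16.9 to 17.7 for PAP and from 16.3 to 17.3 for cuSCC, 8 were tested. In cuSCC against CHR, where 42.3% of all tested entries passed in limma, 1 was higher, miR-182-5p by 1.59, and 2 were lower. The lower ones were the arms of the metabolic microRNA miR-378a. miR-378a-3p differed by -1.07 (adjusted p = 0.00671 in limma) and miR-378a-5p by -0.86 (adjusted p = 0.0325 in limma). In PAP against CHR, where 32.4% of all tested entries passed in limma, miR-182-5p was higher by 1.76. miR-196a-5p, a Hox cluster microRNA, was lower with a difference of -2.88. In cuSCC against PAP, where 11.6% of all tested entries passed in limma, 0 of the list passed (1 at an unadjusted p under 0.05). The exact permutation test called no entry there. The median of the 8 was -0.31, -0.37 and 0.06 in PAP against CHR, cuSCC against CHR and cuSCC against PAP.

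The microRNAs most like each member were found by Pearson correlation over the 18 libraries among 289 other tested entries. These are descriptions, as the libraries share mice, sample types and the normalisation. For miR-193b-3p they were miR-744-5p (r = 0.905, Spearman's rho = 0.917), miR-484 (r = 0.862, rho = 0.824) and miR-320-3p (r = 0.852, rho = 0.844). In cuSCC against CHR these differed by -1.23, -1.31 and -1.19, beside -1.46 for miR-193b-3p. In PAP against CHR they differed by -0.36, -0.52 and -0.29, none past the threshold in limma. As they were picked for their likeness over these same libraries, a similar fall follows from the choice and is no support for it. miR-744-5p and miR-484 are rich in G and C, with 63.6% of their bases, as miR-193b-3p is with 59.1%, beside a median of 50% over the 241 tested entries with a sequence. No sequence was matched to miR-320-3p. Among the rare arms the share was 60.9% for miR-365-2-5p, 59.1% for miR-193b-5p and 56.5% for miR-365-1-5p. In cuSCC against CHR these arms differed by -0.14, -1.23 and -1.22. The part of base composition in these values was not tested.

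miR-365-3p, with 31.8% G and C, resembled other microRNAs, and less closely. They were miR-23a-3p (r = 0.673, rho = 0.602), miR-24-3p (r = 0.643, rho = 0.712) and the epithelial miR-200c-3p (r = 0.611, rho = 0.578). With miR-193b-3p its r was 0.436 (rho = 0.283), with miR-365-1-5p -0.002 and with miR-365-2-5p 0.056. The arms of Mir193b, miR-193b-3p and miR-193b-5p, had r = 0.671 (rho = 0.713). miR-365-1-5p was most like miR-193b-5p of the same cluster (r = 0.768, rho = 0.679), then miR-668-3p (r = 0.757) and miR-484 (r = 0.723). miR-365-2-5p was most like miR-877-3p (r = 0.869, rho = 0.817), then miR-193b-5p of the other cluster (r = 0.787) and miR-151-3p (r = 0.578). Among the rare arms such values rest in part on the libraries that have them undetected together.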

How the data were processed

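Small RNA was sequenced on the Illumina HiSeq platform after TRIZOL extraction and column purification. The authors trimmed adapters, discarded reads that were too short or ended in homopolymers, matched the rest to miRBase by BLAST and gave each microRNA in ppm of usable reads. Tool versions are not given in the sources used here, and the labels name the build mm10. The deposited values are log2 ppm, which the values show to be quantile normalised between the 18 libraries: the libraries share almost 1 set of values, whose ppm sum to 2.35 to 2.36 times a full library, and give relative levels only. Undetected microRNAs stand at 3.32.

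Entries detected in at least 6 of 18 libraries were tested in R 4.3.3 by limma 3.58.1 (eBayes after lmFit, the 2 sample types compared, two-sided, Benjamini-Hochberg adjustment over 293 entries, threshold 0.05). Differences between members within a library were compared by exact permutation tests over samples, whose smallest possible p is 0.00216. Alternatives were no filter or detection in 12 libraries, all sample types in 1 fit, centring of libraries on their median, a replicate block for mouse, exact permutation tests, undetected values raised to their library's lowest detected value, a lowest value of 100 ppm and leaving out each mouse. Leaving out the cuSCC of mouse 10 was added after seeing the data. The fit was tested on simulated data. The members and lists were chosen with earlier results of these data known. Genes named are the members, their opposite arms, the 3 microRNAs most like each tested member, and listed microRNAs. Cell type lists covered leukocytes, erythroid cells, endothelium, epithelium, fibroblasts with smooth muscle, and skeletal muscle.

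Samples with the same number came from the same mouse and are paired. Their deviations from the group means correlated at a mean r of 0.025 for PAP and CHR, -0.0676 for cuSCC and CHR and 0.0582 for cuSCC and PAP, over 0.1 in 2, 1 and 2 of 6 mice. Sequences are from RefSeq (GRCm38.p6) and gene annotation from GENCODE for the same build. All members had a sequence. Python 3.11.15, numpy 2.4.6, pandas 2.3.3, scipy 1.17.1 and matplotlib 3.10.9 were used.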

Additional observations from a re-analysis of the deposited data

Results flagged for a closer look

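miR-365-3p was 10.48 in the CHR of mouse 10, and the gap to the next CHR was 0.690 of the range of that group, past Dixon's 95% limit, which chance passes in about 1 in 20 groups. Without mouse 10 no call for miR-365-3p changed. Of 18 sets of values (an arm in a sample type) looked at, another 5 passed the limit only because the arm was detected in 1 library and the rest were tied at the lowest value of the table, so the limit says nothing there. They are miR-193a-3p at 3.69 in the CHR of mouse 2, miR-365-1-5p at 5.01 in the PAP of mouse 8 and at 3.47 in the cuSCC of mouse 2, miR-193a-5p at 3.32 in the cuSCC of mouse 2, and miR-193b-5p at 4.86 in the cuSCC of mouse 10.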

How the results depend on the processing

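The 312 values recomputed under an alternative include the counts of members passing. Of them, 254 neither turned in direction nor crossed the threshold or, for the counts, stayed equal. The fall of miR-193b-3p in cuSCC against CHR passed under all alternatives run, with adjusted p of 0.00253 to 0.0328 when single mice were left out (-1.71 to -1.21), 0.0179 with mouse as a replicate block, 0.0119 without a filter and 0.0133 with a lowest value of 100 ppm. In cuSCC against PAP, miR-193b-3p passed only with all 3 sample types in 1 fit (-1.16, adjusted p = 0.0451), without mouse 10 and without the cuSCC of mouse 10 (-1.41). Members passing then rose from 0 to 1. The difference was -1.55 to -0.88 over the mice left out. Under the other alternatives its adjusted p was 0.0613 to 0.327 (limma or exact permutation test). miR-365-1-5p passed in cuSCC against CHR with all sample types in 1 fit (-1.22) and with undetected values raised to the lowest detected value in their library (-1.29), and without mouse 7 or 9 (-1.46 to -0.83 over the mice left out), so that members passing rose from 1 to 2. With undetected values so set, it also passed in cuSCC against PAP (-1.93, adjusted p = 0.00959), as did miR-193b-5p (-1.99), so that 1 member passed there. The pass in cuSCC against PAP with undetected values so set compares mainly the lowest detected values of the libraries, which are higher in PAP, and is no result about these arms. The pass of miR-365-1-5p in cuSCC against CHR so set likewise rests on such values for most cuSCC. The cause of the other changes was not tested.

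Among single arms, directions turned for the rare ones only. In PAP against CHR the turned values were, with undetected values at the lowest detected value of their library, 0.64 for miR-365-1-5p, 0.83 for miR-365-2-5p and 0.57 for miR-193b-5p, and 0.042 for miR-365-2-5p at a lowest value of 100 ppm, and miR-365-2-5p ranged from -0.82 to 0.16 over the mice left out. In cuSCC against CHR miR-365-2-5p ranged from -0.41 to 0.50 over the mice left out and was -0.49 without the cuSCC of mouse 10. In cuSCC against PAP miR-365-2-5p turned to -1.38 with undetected values so set, -0.14 at 100 ppm and -0.21 without the cuSCC of mouse 10, and ranged from -0.50 to 0.80 over the mice left out, and miR-365-1-5p ranged from -0.34 to 0.0298. miR-193b-5p lost its call in cuSCC against CHR without a filter (adjusted p = 0.0682), with all sample types in 1 fit (0.065) and at 100 ppm, where no value was left to compare.

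Of the differences within a library, miR-365-3p minus miR-193b-3p in cuSCC against CHR (1.11) kept its size with an adjusted p of 0.0844 with undetected values so set, as the adjustment runs over the miR-193a-3p differences too, and lay between 0.87 and 1.40 over the mice left out. miR-193b-3p minus miR-193a-3p was -1.11 (cuSCC against CHR) and, reversed, 0.53 (cuSCC against PAP) with undetected values so set, -1.16 in cuSCC against PAP at 100 ppm (adjusted p = 0.0649), and -1.68 to -1.23 and -1.65 to -0.98 over the mice left out, with an adjusted p of up to 0.143 and above the threshold without mouse 2, 3, 7 or 8 in both, and without mouse 9 in the latter. These differences mostly restate miR-193b-3p, as miR-193a-3p was nearly constant. Pairing by mouse in exact sign-flip tests (replicate block) left these changes as they were, at 1.11, -1.47 and -1.24, with adjusted p of 0.25, 0.1875 and 0.25, and in limma the block changed no call of a member.

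The unknown read depth, the quantile normalisation and the differing lowest detected values limit the rare arms most, and 6 mice limit all of them.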
